A study of Mus musculus with 8 samples.

Results

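Mouse melanocytes with and without the autophagy gene Atg7 were compared in how they responded to UVA-1, ultraviolet A of long wavelength. All 8 arrays of the series enter this comparison. For each gene the response was the log2 intensity after UVA minus that after sham treatment, within 1 genotype and 1 replicate number of the sample titles. The interaction is the response of the Atg7-deficient cells minus that of the Atg7-competent cells, formed within each of the 2 numbers and then averaged. A positive interaction therefore marks a response that was more positive, or less negative, without Atg7. It was computed for 22180 genes, each represented by the brightest probe set with a single gene symbol. No measured value entered the choice of arrays.

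The cells came from pups aged 1 to 5 days and had been in culture for 22 days. Both genotypes carried floxed Atg7 alleles (Atg7 f/f). The competent cells (WT) had no other allele named in the labels, and the deficient cells (KO) also carried Tyr::Cre, a Cre recombinase driven by the tyrosinase promoter, so deletion is directed to pigment cells and not to other cell types that a culture may hold. Cells of each genotype were given 20 J/cm² UVA-1 or a sham treatment, with RNA isolated 6 h afterwards. The 4 groups (WT sham, WT UVA, KO sham, KO UVA) held 2 arrays each, which the submitters call biological duplicates. All samples carry the label female. The labels do not say which animals or cultures a number stands for, so the p-values measure only the spread between these samples.

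Atg7 is the E1-like enzyme that starts the conjugation of LC3 proteins to membrane lipid, a step needed for macroautophagy. UVA penetrates deeply into skin and acts largely through oxidants, which engage the NRF2 pathway. In that pathway oxidants release the transcription factor NRF2 from KEAP1, and NRF2 then induces genes of glutathione synthesis, quinone reduction and heme breakdown. The autophagy receptor p62, encoded by Sqstm1, can bind KEAP1 and is itself degraded by autophagy, which links both systems. Damaged proteins induce the HSP70 chaperones through heat shock factor 1, and blocked translation or amino acid shortage acts through the transcription factor ATF4.

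The probe set for Atg7 read 989 (sham) and 1004 (UVA) in WT of number 1 and 859 and 832 in WT of number 2. It read 831 and 804 in KO of number 1 and 598 and 602 in KO of number 2. Every KO array lay below every WT array, although the closest values, 831 and 832, nearly touched. UVA moved Atg7 by less than 0.05 log2 units in all 4 responses, and its interaction was -0.01 (95% interval -0.24 to 0.23). Which exons the probes cover is not given in the sources used here, so the probe set cannot check the deletion.

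The arrays fell first by replicate number, with 77.7% of the variance on a principal component that separated the numbers. The defining melanocyte markers were high everywhere, with a mean log2 level over 10 genes of 11.83 to 13.04. Markers of fibroblasts, which can grow from pup skin, had a mean log2 level over 13 genes of 10.90 to 11.06 in number 1. In number 2 they read 8.83 and 8.72 in WT and 9.81 and 9.73 in KO. Their summed intensity ranged from 9518 to 49579 in WT sham, 8583 to 48469 in WT UVA, 22089 to 52715 in KO sham and 20311 to 49412 in KO UVA, and none of the markers was at 0. The interaction of these markers was small, with a median of -0.02. In both numbers 0 of 13 were higher and 3 (23.1%) lower, beside 21.7% and 26.2% of all genes. The level of fibroblast markers thus differed between the genotypes in number 2, and its part in the interactions below was not tested. Over the 8 arrays the summed markers of other cell types were 1292 to 1534 for keratinocytes, 1445 to 3065 for myeloid cells, 1765 to 4062 for mast cells, 4797 to 6118 for endothelial cells, 7997 to 11461 for Schwann cells and 1075 to 1304 for skeletal muscle. The Schwann and mast cell lists share genes with the melanocyte list (Sox10 and Kit), and sums over different probes cannot be ranked against each other. In such bulk samples, fewer cells of a type and less RNA per cell cannot be told apart.

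The first question was whether any gene responded to UVA differently in the genotypes. With limma, 0 of 22180 genes passed at an adjusted p under 0.05 (0%), and every adjusted p was 1. At an unadjusted p under 0.05 there were 766 genes (3.45%), fewer than the 1109 expected if no gene differed. Of these, 338 had a higher and 428 a lower interaction. The precision sets what this can show. The 95% interval of the interaction reached a median of 0.36 log2 units to either side over all genes, and it lay inside ±1 for 98.8% of genes and inside ±0.5 for 61.5%. Taken gene by gene, a difference beyond 1 log2 unit between the responses was therefore outside the interval for most genes, while smaller differences were often within it.

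The 2 numbers share no array, so each gives its own reading of the interaction. Across genes these readings correlated at r = -0.01 over all 22180 genes. The correlation was -0.03 over the 16408 genes with a mean log2 level of at least 6 and -0.02 over the 12238 with at least 7. Genes are not independent replicates, and these coefficients are given as a description. The sign agreed in 47.9% of genes: 21.7% were higher in KO in both numbers and 26.2% were lower in both. By contrast, the responses averaged over the genotypes correlated between the numbers at r = 0.21, and at 0.29 over the genes with a level of at least 6.

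**Figure D1:**
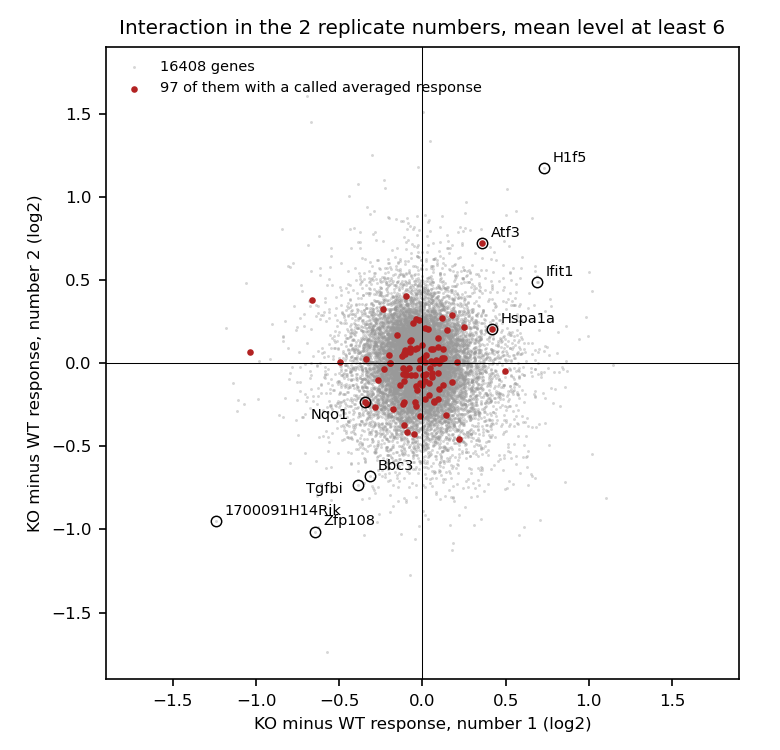
KO minus WT response to UVA (log2) in number 1 (horizontal) against number 2 (vertical) for the 16408 genes with a mean log2 level of at least 6. The cloud has no slope (r = -0.03), and the 97 genes with a called averaged response (red) lie near its centre, apart from a few such as Atf3 and Slitrk6 (far left, unlabelled).

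The same holds for the extremes, a reading chosen after the data were seen. The 100 genes with the highest interaction in number 1 had a median of 0.69 there and -0.05 in number 2. The 100 lowest went from -0.70 in number 1 to -0.01 in number 2. Chosen in number 2, the highest went from 0.78 to -0.03 in number 1 and the lowest from -0.77 to 0.04. Genes picked as extreme in 1 number therefore read close to 0 in the other.

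Since the averaged response of a gene does not depend on its interaction in this balanced design, it was used to find genes that responded to UVA. Limma called 97 of them, 53 up (0.239% of all genes) and 44 down (0.198%). All 97 had the same sign in all 4 responses. This count rests on the fit: it was 0 with no replicate block, 3 with the replicate number alone as a block, and 0 when any 1 of the 4 responses was left out. It was 465 when genes with a mean log2 level under 6 were removed first, and all 97 were among these. Quantile normalization repeated on the deposited values gave 250, with 111 up and 139 down, against 53 and 44 in the main setting. The last gene called was Trim34a (averaged response -0.49, adjusted p = 0.04998) and the first not called was Ddx58 (-0.27, adjusted p = 0.0515).

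**Figure D2:**
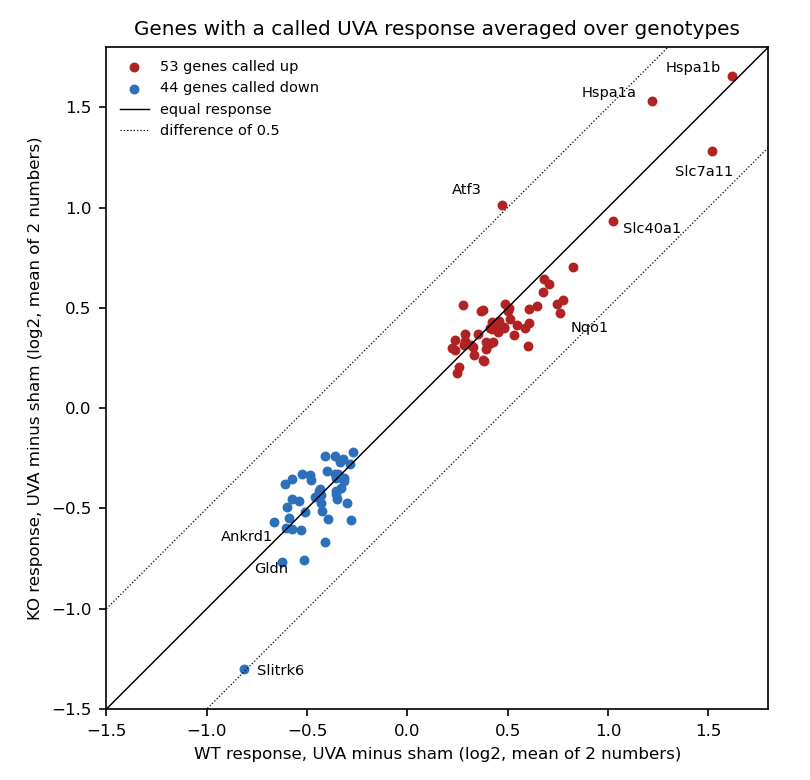
Mean response to UVA in WT (horizontal) and KO (vertical), in log2 units, for the 97 genes with a called averaged response. Points lie along the line of equal response, and Atf3 is the single gene with an interaction above 0.5.

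On average these responses were of similar size in the genotypes. Among the 53 rising genes the median response was 0.45 in WT and 0.40 in KO. Among the 44 falling genes it was -0.43 in WT and -0.42 in KO. The interaction of the 97 genes ran from -0.49 for Slitrk6, a neuronal membrane protein, to 0.54 for Atf3, a stress-induced transcription factor. Its 95% interval lay inside ±1 for 96 of the 97 (99%), as it did for 98.8% of all genes, so that count says nothing particular to them. It lay inside ±0.5 for 80 of them (82.5%), 43 rising and 37 falling, beside 61.5% of all genes, and calling genes with a small spread favours this. The median reach of the interval was 0.25 to either side in these genes. The response was larger in KO in both numbers for 19 genes and smaller in both for 33, and it differed in direction between the numbers for 45. Of the rising genes, 12 were larger and 22 smaller in KO in both numbers, and of the falling genes 7 and 11.

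The amplitude was also read in arrays that had no part in choosing the genes. The 100 genes with the highest response in number 1, averaged over the genotypes, had median responses in number 2 of 0.11 in WT and 0.12 in KO, with a median interaction of -0.04. The 100 highest in number 2 had responses in number 1 of 0.23 and 0.24, again with a median interaction of -0.04. KO exceeded WT in 43 and 42 of the 100 genes. The 100 genes with the lowest response in number 1 read -0.29 in WT and -0.14 in KO in number 2, while those chosen in number 2 read -0.16 in WT and -0.23 in KO in number 1. For the lowest genes the order of the genotypes thus turned with the number.

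The HSP70 gene Hspa1b, an inducible chaperone that refolds damaged proteins, had the highest averaged response of the 97 genes and was nearly equal in the genotypes. In WT it read 583 (sham) and 1692 (UVA) for number 1, and 697 and 2271 for number 2. In KO it read 733 and 2024 for number 1, and 811 and 2912 for number 2. All 4 UVA arrays lay above all 4 sham arrays. The fold increase was 3.08 in WT and 3.15 in KO (averaged response adjusted p = 7.01e-05), and the interaction was 0.03 (95% interval -0.28 to 0.35). The 250 bases before its start site, on the minus strand at chr17:34959239-34959488 (RefSeq, GRCm38.p6), are shown because they hold the inverted repeat bound by heat shock factor, here searched as GAANNTTC or TTCNNGAA on both strands. Capitals mark the single match, which begins 104 bases before the start.
Hspa1b: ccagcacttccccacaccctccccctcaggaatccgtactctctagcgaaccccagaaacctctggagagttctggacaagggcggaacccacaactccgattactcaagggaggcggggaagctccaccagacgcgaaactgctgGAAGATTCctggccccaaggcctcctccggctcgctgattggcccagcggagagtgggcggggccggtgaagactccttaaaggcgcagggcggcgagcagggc

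A match to either form was present in 12.8% of the 32851 promoter windows of this length, and in 9 of 19 windows of the heat shock list (47.4%). A match is a description and not a binding site.

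Its near-identical neighbour Hspa1a was further from equality. It read 470 and 1111 in WT of number 1, 890 and 2042 in WT of number 2, 519 and 1640 in KO of number 1 and 875 and 2314 in KO of number 2. UVA arrays again lay above all sham arrays. The responses were 1.24 and 1.20 in WT against 1.66 and 1.40 in KO, so both KO values exceeded both WT values. The fold increase was 2.33 in WT and 2.89 in KO, and the interaction was 0.31 (95% interval 0.05 to 0.57, limma adjusted p = 1). Probes of these 2 genes may pick up each other's transcripts, so the difference between them is uncertain.

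Of 18 measured heat shock genes, 3 were called up by UVA and 0 down, beside 0.239% and 0.198% of all genes, and 0 were called for the interaction. In both numbers 8 of them (44.4%) were higher in KO and 3 (16.7%) lower, beside 21.7% and 26.2% of all genes, with a median interaction of 0.03. Bag3, a co-chaperone that works with HSP70 in selective autophagy, was the member with the lowest interaction by the ranking used. Its responses were 0.31 and 0.30 in WT and 0.18 and 0.06 in KO, giving an interaction of -0.19 (95% interval -0.37 to -0.0049). Its averaged response did not pass (adjusted p = 0.0754).

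NRF2 targets had more called risers than any other of the 23 pathway lists. Of 25 measured members, 12 were called up and 0 down, beside 0.239% and 0.198% of all genes, and 0 were called for the interaction. Their median responses were 0.32 and 0.43 in WT and 0.32 and 0.28 in KO. In both numbers 2 members (8%) were higher and 11 (44%) lower in KO, beside 21.7% and 26.2% of all genes. The median interaction was -0.0043 in number 1 and -0.10 in number 2. For 21 of the 25 the 95% interval of the interaction lay inside ±0.5, beside 61.5% of all genes.

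Slc7a11, the cystine importer that feeds glutathione synthesis, had the largest response of the list. It read 1160 and 2463 in WT of number 1, 730 and 2828 in WT of number 2, 1561 and 3070 in KO of number 1 and 1087 and 3258 in KO of number 2. The lowest UVA array, at 2463, was above the highest sham array, at 1561. The fold increase was 2.87 in WT and 2.43 in KO (adjusted p = 0.00788). The interaction was -0.24 with a wide interval of -0.87 to 0.39, since in both genotypes number 2 responded more than number 1 (1.95 against 1.09 in WT and 1.58 against 0.98 in KO).

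Nqo1, a quinone reductase, had the lowest interaction of the measured NRF2 targets. Its intensity went from 636 to 1058 in WT of number 1 and from 979 to 1695 in WT of number 2. In KO it went from 1382 to 1810 in number 1 and from 2657 to 3907 in number 2. KO arrays were higher than WT arrays of the same number and treatment, and the step on the log2 scale was smaller: 0.39 and 0.56 in KO against 0.73 and 0.79 in WT. Both KO responses lay below both WT responses. The fold increase was 1.70 in WT and 1.39 in KO, and the interaction was -0.29 (95% interval -0.51 to -0.07, adjusted p = 1).

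The retinol-oxidizing enzyme Adh7, an alcohol dehydrogenase, had a similar pattern. It went from 555 to 933 and from 2329 to 3896 in WT, and from 2010 to 2985 and from 5934 to 8186 in KO. Its responses were 0.75 and 0.74 in WT and 0.57 and 0.46 in KO, with an interaction of -0.23 (95% interval -0.41 to -0.04, adjusted p = 1). Here too the KO arrays started higher and the log2 step was smaller.

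Some antioxidant genes, outside the rule for naming genes and picked after their values were seen, also had smaller responses in KO in both numbers. Gsr, the glutathione reductase, responded by 0.66 and 0.56 in WT and by 0.39 and 0.46 in KO, and Pgd, of the pentose phosphate pathway, by 0.32 and 0.45 in WT and by 0.28 and 0.19 in KO. Catalase (Cat) responded by 0.33 and 0.43 in WT and by 0.28 and 0.20 in KO. These 3 genes were called up on average, and the interval of their interaction included 0. Mgst1, a microsomal glutathione transferase, was not called and responded by 0.28 and 0.24 in WT and by 0.04 and 0.04 in KO (interaction -0.22, interval -0.44 to 0.01). Gclc and Txnrd1, called up and also outside the rule, differed in direction between the numbers (interactions -0.01 and -0.02).

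The remaining genes of this group that the rule names were closer to equal. Hmox1, the heme oxygenase, rose 1.40-fold in WT and 1.32-fold in KO on average (averaged response adjusted p = 0.00649), with an interaction of -0.08 (95% interval -0.26 to 0.10) that was positive in number 1 and negative in number 2. Sqstm1 rose 1.20-fold in WT and 1.15-fold in KO (adjusted p = 0.0233), with an interaction of -0.06 (-0.19 to 0.08). Srxn1, the sulfiredoxin that repairs peroxiredoxins, read 1.31-fold and 1.22-fold and missed the test (adjusted p = 0.0609). Slc40a1, the iron exporter ferroportin, rose 2.03-fold in WT and 1.91-fold in KO (adjusted p = 0.0222; interaction -0.09, interval -0.61 to 0.43). Me1, the cytosolic malic enzyme, was the NRF2 target with the highest rank on the other side, at 0.02.

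Atf3 was the responder with the largest interaction. It read 422 and 546 in WT of number 1, 443 and 659 in WT of number 2, 448 and 744 in KO of number 1 and 484 and 1187 in KO of number 2. Sham arrays were alike in the genotypes, at 422 to 484, and both KO arrays after UVA were above both WT arrays after UVA. The responses were 0.37 and 0.57 in WT and 0.73 and 1.29 in KO. This is 1.39-fold in WT and 2.02-fold in KO, an interaction of 0.54 (95% interval 0.12 to 0.96, adjusted p = 1). The averaged response passed (adjusted p = 0.0233).

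Atf3 and Slc7a11 were also the called responders whose 250 bases before the start hold TGATGCAA, an element through which ATF4 and related factors can act. The element was searched on both strands and found in 0.791% of all 32851 windows and in 2 of 54 windows (3.7%) of the 43 rising genes that could be matched. It was in 0 of 38 windows of the 34 matched falling genes and in 4 of 23 windows of the ATF4 list. The Slc7a11 window lies on the minus strand at chr3:50443614-50443863 and that of Atf3 on the minus strand at chr1:191183334-191183583 (RefSeq, GRCm38.p6). Capitals mark the matches, which begin 66 and 47 bases before the start in Slc7a11 and 110 bases before it in Atf3.
Slc7a11: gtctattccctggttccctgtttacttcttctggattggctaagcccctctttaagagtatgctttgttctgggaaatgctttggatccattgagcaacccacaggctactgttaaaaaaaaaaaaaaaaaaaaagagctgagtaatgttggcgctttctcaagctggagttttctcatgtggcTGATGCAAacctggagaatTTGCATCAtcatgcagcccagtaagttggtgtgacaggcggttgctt
Atf3: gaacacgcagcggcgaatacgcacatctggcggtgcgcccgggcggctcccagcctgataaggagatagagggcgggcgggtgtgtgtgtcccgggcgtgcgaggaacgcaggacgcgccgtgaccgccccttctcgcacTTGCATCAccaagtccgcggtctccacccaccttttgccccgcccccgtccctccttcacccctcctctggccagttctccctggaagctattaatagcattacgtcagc

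Both genes hold the same letters. The interaction was -0.24 (95% interval -0.87 to 0.39) for Slc7a11 and 0.54 (0.12 to 0.96) for Atf3. The part of the element in these values was not tested. The other ATF4 targets gave little to set beside Atf3 and Slc7a11. Of 23 measured, 1 was called up, beside 0.239% of all genes. In both numbers 7 (30.4%) were higher and 5 (21.7%) lower in KO, beside 21.7% and 26.2% of all genes. Ddit3, which encodes the stress factor CHOP, responded by 0.19 and 0.03 in WT and by 0.40 and 0.29 in KO (interaction 0.24, 95% interval 0.01 to 0.47; averaged response adjusted p = 0.109). Trib3, a pseudokinase induced by CHOP, had an interaction of -0.14 (-0.61 to 0.33). Among 19 genes of the endoplasmic reticulum stress response, 4 (21.1%) were higher and 4 (21.1%) lower in both numbers, beside 21.7% and 26.2% of all genes. Herpud1, a component of protein disposal at that membrane, had the highest rank there at 0.31 (0.04 to 0.57) and the secreted factor Manf the lowest at -0.20 (-0.49 to 0.09).

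Of 28 immediate early genes, 2 were called up, beside 0.239% of all genes. In both numbers 9 (32.1%) were higher and 5 (17.9%) lower in KO, beside 21.7% and 26.2% of all genes, with a median interaction of -0.01. Fosb, a subunit of the AP-1 transcription factor, rose 1.77-fold in WT and 1.63-fold in KO (adjusted p = 0.04998). Its responses were 0.89 and 0.76 in WT and 1.11 and 0.30 in KO, so the KO values lay on both sides of WT. Fos itself read 1.08-fold and 1.09-fold, with an interaction of 0.02 (95% interval -0.33 to 0.37).

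**Figure D3:**
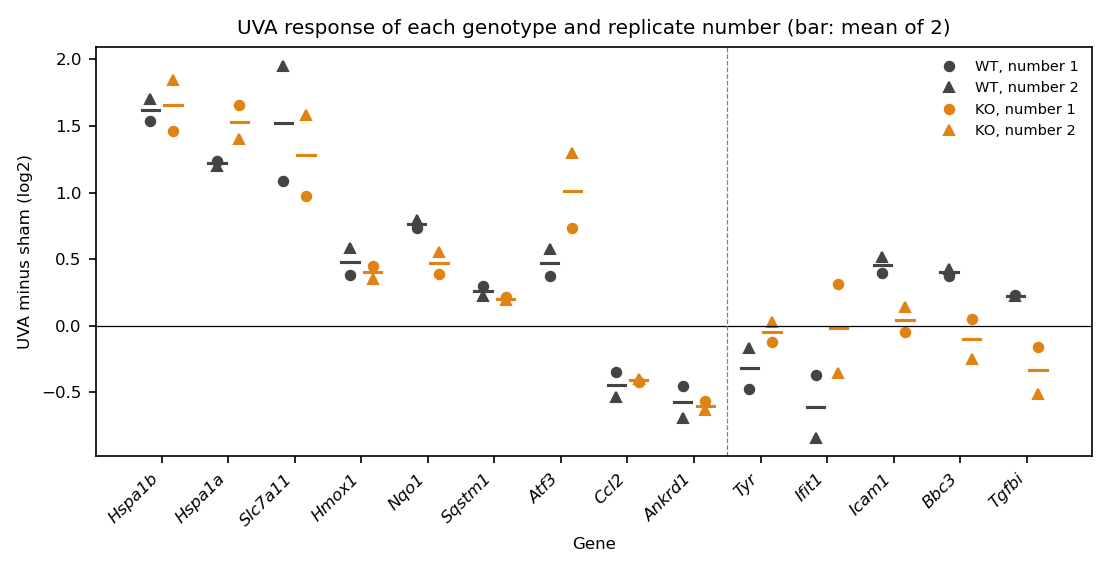
UVA minus sham (log2) in each genotype and replicate number, with the mean of the 2 numbers as a bar. Left of the dashed line are genes with a called averaged response, right of it genes without one; Hspa1b, Hmox1, Sqstm1, Ccl2 and Ankrd1 overlap between genotypes or nearly so, and both KO points of Nqo1 lie below and both of Atf3 above those of WT.

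Among the 97 responders the 95% interval of the interaction excluded 0 in 6 (6.19%), beside 3.45% of all genes. At this level about 5% of all genes would do so if no gene differed. Calling responders with a small spread favours intervals that exclude 0, so neither share is a fair measure for them. All 6 had an adjusted p of 1: Hspa1a and Atf3 above 0, and Nqo1, Adh7, Fam219a and Klhdc8a below 0. Fam219a and Klhdc8a were outside the rule for naming genes and are given because they complete this count. Fam219a responded by 0.59 and 0.61 in WT and by 0.25 and 0.37 in KO. Klhdc8a fell more in KO, by 0.57 and 0.55 on the log2 scale, than in WT, where it fell by 0.28 in each number.

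Among the falling genes, Ankrd1, a target of the YAP coactivators, went from 4036 to 2944 and from 306 to 189 in WT and from 4234 to 2855 and from 651 to 420 in KO. The level differed severalfold between the numbers and the response much less: 0.671 of the sham level remained in WT and 0.660 in KO, with an interaction of -0.03 (95% interval -0.28 to 0.23; averaged response adjusted p = 0.00727). Ccl2, the monocyte chemoattractant, fell to 0.736 of sham in WT and 0.752 in KO (interaction 0.03, interval -0.16 to 0.22; averaged response adjusted p = 0.00727). Apln, the ligand apelin, fell to 0.632 and 0.675 (adjusted p = 0.0222), and Pde7b, a phosphodiesterase that breaks down cyclic AMP, to 0.657 and 0.662 (adjusted p = 0.0496). The transcription factor Osr1 fell to 0.752 in WT and 0.631 in KO (adjusted p = 0.0222; interaction -0.25, interval -0.55 to 0.04). Sham levels in numbers 1 and 2 were 3088 and 428 in WT and 2946 and 1330 in KO for Osr1. For Ccl2 they were 9819 and 1623 in WT and 10862 and 4946 in KO. Ankrd1, Ccl2 and Osr1 were thus brighter in number 1, and within number 2 brighter in KO, as the fibroblast markers were. Apln and Pde7b were brighter in number 2. The part of cell composition in these values was not tested.

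Slitrk6 had the largest averaged fall and the least even one. It went from 148 to 104 and from 165 to 76 in WT, and from 348 to 119 and from 655 to 316 in KO. The responses were -0.51 and -1.12 in WT and -1.55 and -1.05 in KO. The interaction of -0.49 (95% interval -1.03 to 0.06) came from number 1, where it was -1.04, and not from number 2, where it was 0.07.

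In the cholesterol pathway 2 of 19 measured genes were called down, beside 0.198% of all genes. In both numbers 5 (26.3%) were higher and 3 (15.8%) lower in KO, beside 21.7% and 26.2% of all genes. Mvd, which makes isopentenyl diphosphate, fell to 0.813 of sham in WT and 0.721 in KO (adjusted p = 0.0346; interaction -0.17, interval -0.42 to 0.07). Msmo1, a sterol demethylating enzyme, read 0.857 and 0.980 with an interaction of 0.19 (-0.03 to 0.41) and was not called.

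Beyond the called responders, gene lists are described by how many members took 1 sign in both numbers, with no test between a list and other genes. Members of a list were measured on the same 4 arrays per number, so they are not independent of each other, and 0 members of these lists passed for the interaction. In 26 measured p53 targets, genes of cell cycle arrest, DNA repair and apoptosis, 18 (69.2%) were lower in KO in both numbers and 3 (11.5%) higher, beside 26.2% and 21.7% of all genes. Their median response was 0.15 and 0.34 in WT and 0.10 and 0.15 in KO. The median interaction was -0.05 in number 1 and -0.18 in number 2. Leaving out 1 response or number gave -0.26 to -0.03. Called up were 2 members, beside 0.239% of all genes. Bbc3, which encodes the apoptosis inducer PUMA, read 133 and 172 in WT of number 1, 124 and 167 in WT of number 2, 157 and 163 in KO of number 1 and 164 and 138 in KO of number 2. WT read higher after UVA in both numbers, and KO read higher in number 1 and lower in number 2. The steps are small on the intensity scale, and the interaction was -0.50 (95% interval -0.87 to -0.12, adjusted p = 1). Cdkn1a, the cell cycle inhibitor p21, responded by 0.18 and 0.52 in WT and by 0.18 and 0.20 in KO (interaction -0.16, interval -0.39 to 0.07). Mdm2, the negative regulator of p53, responded alike, 1.17-fold in both (interaction 0.00, interval -0.21 to 0.21). Perp, a desmosomal protein, was higher at 0.24 (-0.18 to 0.66).

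Interferon response genes took the opposite sign. Of 31 measured, 19 (61.3%) were higher and 2 (6.45%) lower in KO in both numbers, beside 21.7% and 26.2% of all genes. The median interaction was 0.13 in number 1 and 0.09 in number 2. Their median response was -0.08 and -0.20 in WT and 0.06 and -0.12 in KO, and 0 were called up or down. Ifit1, an interferon-induced RNA-binding protein, read 220 and 170 in WT of number 1, 1016 and 567 in WT of number 2, 484 and 603 in KO of number 1 and 1358 and 1062 in KO of number 2. It was lower after UVA in 3 of the 4 pairs, and the interaction was 0.59 (95% interval 0.06 to 1.11). The T cell chemokine Cxcl10 read 210 and 185, 1410 and 578, 623 and 685, and 3338 and 1980 in the same order. Its interaction of 0.43 had an interval from -0.41 to 1.26, because number 2 had far more negative responses than number 1 in both genotypes.

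**Figure D4:**
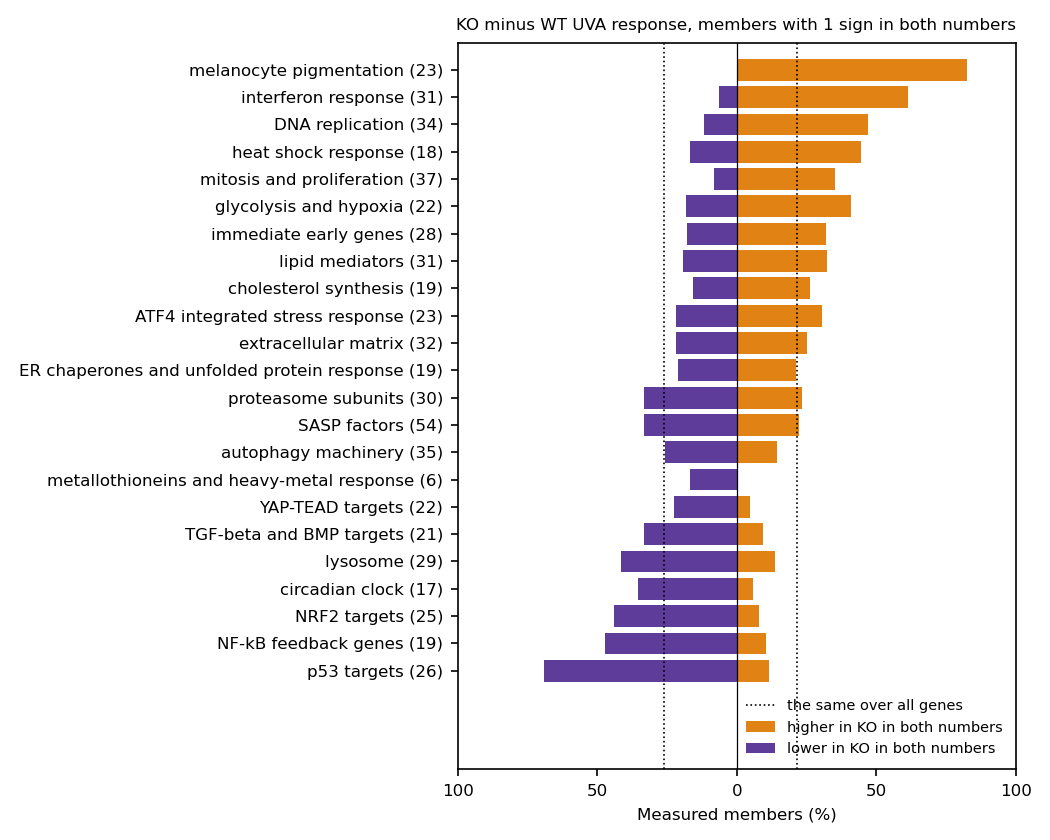
For each of 23 pathway lists (measured members in brackets), the percent of members whose KO minus WT response was higher (orange, right) or lower (purple, left) in both numbers. Dotted lines give 21.7% and 26.2%, the same shares over all genes; pigmentation genes lie farthest to the right and p53 targets farthest to the left.

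In the pigmentation list, genes of melanin synthesis and melanosome transport, 19 of 23 (82.6%) were higher and 0 lower in KO in both numbers. The shares over all genes were 21.7% and 26.2%. The median interaction was 0.11, or 0.14 in number 1 and 0.04 in number 2. Tyr, the rate-limiting enzyme of melanin synthesis, read 1618 and 1167 in WT of number 1, 4645 and 4127 in WT of number 2, 1494 and 1375 in KO of number 1 and 3441 and 3507 in KO of number 2. UVA arrays were below sham in WT of both numbers and in KO of number 1, and above it in KO of number 2. The responses were -0.47 and -0.17 in WT and -0.12 and 0.03 in KO (interaction 0.27, 95% interval 0.01 to 0.53, adjusted p = 1). Mitf, the master regulator of the lineage, differed in sign between the numbers (0.27 and -0.11). With quantile normalization repeated, the pigmentation count became 14 higher and 2 lower and the median 0.08, so the direction held with fewer members. The melanocyte markers, which share members with this list, had 8 of 10 (80%) higher and 0 lower, beside 21.7% and 26.2% of all genes. Their mean log2 level went from 12.02 (sham) to 11.83 (UVA) in WT of number 1 and from 13.04 to 13.01 in WT of number 2. In KO it went from 11.93 to 11.96 in number 1 and from 12.74 to 12.75 in number 2. Their median interaction was 0.16 in number 1 and 0.03 in number 2. The part of cell composition in these values was not tested.

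Of 19 NF-kB feedback genes, 9 (47.4%) were lower and 2 (10.5%) higher in both numbers, beside 26.2% and 21.7% of all genes, with a median of -0.10. Icam1, the leukocyte adhesion receptor, read 324 and 426 in WT of number 1 and 148 and 212 in WT of number 2. In KO it read 405 and 392 for number 1 and 341 and 376 for number 2. It responded by 0.39 and 0.52 in WT and by -0.05 and 0.14 in KO (interaction -0.41, 95% interval -0.72 to -0.10, adjusted p = 1). Rel, an NF-kB subunit, was the highest at 0.18 (-0.08 to 0.44).

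SASP factors, the cytokines, chemokines and proteases that senescent cells release and that the series title names, had no common direction. Of 54 measured, 12 (22.2%) were higher and 18 (33.3%) lower in KO in both numbers, beside 21.7% and 26.2% of all genes. The median was -0.01, and 1 was called up and 1 down by UVA, beside 0.239% and 0.198% of all genes. Il6 read 179 and 363 in WT of number 1 but 36 and 26 in WT of number 2, and 327 and 432 and then 30 and 26 in KO, near the low end of the arrays in number 2. Its interaction of -0.18 had an interval from -1.15 to 0.80. The neutrophil chemokines Cxcl1 and Cxcl2 had interactions of -0.21 (-0.91 to 0.49) and -0.16 (-0.73 to 0.41). The matrix proteases Mmp3 and Mmp13 had -0.07 (-0.37 to 0.24) and -0.03 (-0.33 to 0.27), and the chemokine Ccl5 had -0.08 (-0.45 to 0.28). None of these passed for the averaged response either.

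Of 31 genes of lipid mediators, 10 (32.3%) were higher and 6 (19.4%) lower in both numbers, beside 21.7% and 26.2% of all genes, with a median of 0.04. Ptgs2, the inducible cyclooxygenase, responded by 0.15 and -0.19 in WT and by 0.19 and -0.03 in KO (interaction 0.10, interval -0.18 to 0.38). Ptges, the prostaglandin E synthase, had -0.14 (-0.34 to 0.05), the phospholipase Pla2g6 -0.21 (-0.50 to 0.08) and the prostaglandin D synthase Ptgds 0.11 (-0.04 to 0.26).

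Among 34 DNA replication genes, 16 (47.1%) were higher and 4 (11.8%) lower in KO in both numbers, with a median of 0.05 in number 1 and 0.13 in number 2. Among 37 mitotic genes 13 (35.1%) were higher and 3 (8.11%) lower, with a median of -0.01 in number 1 and 0.13 in number 2. Both medians were higher in number 2, and that of replication was above 0 in each number. Leaving out 1 response or number gave -0.02 to 0.13 for replication and -0.03 to 0.18 for mitosis. The lowest of these values came from leaving out 1 response, where the interaction is no longer formed within the numbers. Pola1, the catalytic subunit of DNA polymerase alpha, had an interaction of 0.25 (-0.09 to 0.59) and E2f1, a factor of S phase entry, -0.15 (-0.41 to 0.11). Bub1b, a spindle checkpoint kinase, read 116 and 114 in WT of number 1, 628 and 497 in WT of number 2, 104 and 128 in KO of number 1 and 336 and 344 in KO of number 2, with an interaction of 0.35 (-0.04 to 0.73). The level of this gene differed severalfold between the numbers.

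Of 35 autophagy genes, 5 (14.3%) were higher and 9 (25.7%) lower in both numbers, beside 21.7% and 26.2% of all genes. For all 35 the interval lay inside ±0.5, beside 61.5% of all genes. All 35 had a mean log2 level of at least 6, where intervals were narrower (median reach 0.33 against 0.36 over all genes). Atg101, a subunit of the initiating kinase complex, had -0.21 (-0.47 to 0.04) and Becn1, of the lipid kinase complex, 0.16 (-0.09 to 0.41). Of 29 lysosomal genes 4 (13.8%) were higher and 12 (41.4%) lower, with a median of -0.09 in number 1 and 0.01 in number 2. The lowest by size was Ctss, the protease cathepsin S, at -0.36 (-0.74 to 0.01), a dim gene outside the rule for naming genes. The sialidase Neu1 had -0.12 (-0.36 to 0.11) and the hexosaminidase subunit Hexa 0.09 (-0.06 to 0.25). For all 30 proteasome subunits the interval lay inside ±0.5, beside 61.5% of all genes, and 29 of them had a level of at least 6. In both numbers 7 (23.3%) were higher and 10 (33.3%) lower, beside 21.7% and 26.2% of all genes. Extracellular matrix genes had 8 of 32 (25%) higher and 7 (21.9%) lower, and glycolysis and hypoxia genes 9 of 22 (40.9%) and 4 (18.2%). YAP-TEAD targets had 1 of 22 (4.55%) higher and 5 (22.7%) lower, and targets of TGF-beta and BMP 2 of 21 (9.52%) and 7 (33.3%). Clock genes had 1 of 17 (5.88%) higher and 6 (35.3%) lower, and metallothioneins 0 of 6 and 1 (16.7%). The shares over all genes were 21.7% and 26.2%. The sign of the median interaction held for all 23 pathway lists when the deposited values were quantile normalized again or centred on each array's median. It did not hold in general when 1 response or number was left out: 15 of the 23 medians then took both signs. With 1 response left out the interaction is no longer formed within the numbers, so a difference in response between them enters these medians. The 8 that kept 1 sign were those of NRF2 targets, p53 targets and NF-kB feedback genes (below 0) and of heat shock, interferon, lipid mediator, pigmentation and glycolysis genes (above 0).

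Genes with the steadiest interaction were ranked by the smaller of the 2 numbers' absolute values, among genes with a mean log2 level of at least 6. The choice fixes their sign and favours intervals that exclude 0, as in 19 of the 20 genes. Their intervals and adjusted p-values are therefore given as a description and not as a test. In 13 of these 20 genes both WT responses went one way and both KO responses the other, a pattern seen in 7.45% of all genes. They were mostly dim, with a median mean log2 level of 6.35 against 7.31 over all genes, where rounding to whole intensities and background weigh most. The highest was H1f5, a linker histone, at 33 and 25 in WT of number 1, 379 and 233 in WT of number 2, 31 and 39 in KO of number 1 and 137 and 190 in KO of number 2. In number 1 that is a few intensity units at the low end of the array. Its interaction was 0.95 (95% interval 0.55 to 1.36, adjusted p = 1). The lowest was the uncharacterised gene 1700091H14Rik, at 62 and 81, 80 and 94, 103 and 57, and 92 and 56 in the same order (interaction -1.09, interval -1.47 to -0.72).

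Some genes of this ranking were brighter. Olfml3, a secreted olfactomedin-like protein, read 541 and 620 in WT of number 1, 198 and 315 in WT of number 2, 638 and 474 in KO of number 1 and 332 and 267 in KO of number 2. After UVA it was higher in WT and lower in KO in both numbers (interaction -0.80, interval -1.19 to -0.42). C1ra, a serine protease of the classical complement pathway, went 242 to 288 and 103 to 163 in WT and 350 to 273 and 154 to 147 in KO (interaction -0.67, interval -1.09 to -0.24). Outside this ranking, and named as the lowest of their lists, were Tgfbi and Mfap2. Tgfbi, a matrix protein induced by TGF-beta, went 669 to 785 and 179 to 209 in WT and 947 to 848 and 269 to 189 in KO (interaction -0.56, interval -0.90 to -0.23). Mfap2, a microfibril protein, had -0.42 (-0.71 to -0.13). All of these had an adjusted p of 1. Olfml3, C1ra, Tgfbi and Mfap2 were brighter in number 1 than in number 2, as the fibroblast markers were, and the part of cell composition in these values was not tested.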

How the data were processed

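The 8 RNA samples were each hybridised to 1 Affymetrix whole-transcript array. Per the submitters' processing notes, the authors made the deposited intensity values by robust multi-array averaging (RMA) in Affymetrix Expression Console 1.3.1.187. The intensities are whole numbers on a linear scale, and log2 of the deposited values was taken here without a pseudocount. Of 41345 probe sets, 23521 had 1 gene symbol, 1814 several and 16010 none. For the 1082 genes with several probe sets the brightest was kept. RMA hides a change common to most genes. The number of arrays limits the precision.

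Responses (UVA minus sham) were formed within genotype and replicate number, a paired design that takes out the level of each genotype and number. Deviations of same-numbered arrays from their group means correlated at 0.80 to 0.92 between groups, and the pairing comes from this and the shared numbers in the titles. Limma 3.58.1 in R 4.3.3 fitted a mean per genotype to the 4 responses (2 residual degrees of freedom), with eBayes and a trend on level. A difference in response between the numbers that both genotypes share stays in the residual and can widen the intervals of the interaction. With a replicate block on the responses, 1 residual degree of freedom remained. That fit called 0 genes for the interaction, with a smallest adjusted p of 0.993. P-values are two-sided, and calls were made at 0.05 after Benjamini-Hochberg adjustment over 22180 genes. The procedure was tested on simulated data in which the 4 responses varied independently. A difference between the numbers that both genotypes share was not part of that test.

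Genes, 31 lists and promoter motifs were chosen with earlier results of these data known. Named genes were the 10 highest and 10 lowest by the smaller absolute interaction of the 2 numbers (mean log2 level of at least 6), the 10 highest and 10 lowest called averaged responses, the top member of each list in each direction, and a set of stress, secretory and pigment genes. Cell type lists were used for composition only. Promoter windows are from RefSeq.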

Additional observations from a re-analysis of the deposited data

Results flagged for a closer look

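In 16 of the named genes both WT responses went one way and both KO responses the other. The difference itself was tested with limma for each of them and none passed (adjusted p = 1). The same pattern occurred in 7.45% of all genes, and 13 of the 16 were picked for a steady interaction, which favours it.

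The interactions above 0, on the log2 scale, were 0.95 for H1f5, 0.76 for Olfr566, 0.74 for Marcksl1-ps4, 0.58 for Marveld3, 0.53 for Zfp119a, 0.35 for Bub1b and 0.16 for Becn1. Those below 0 were -1.16 for Lhx8, -1.09 for 1700091H14Rik, -0.83 for Zfp108, -0.80 for Olfml3, -0.72 for Olfr419, -0.71 for P2rx6, -0.67 for C1ra, -0.60 for Smr2 and -0.56 for Tgfbi. For Lhx8, a homeobox gene, 1 response decides the size: WT of number 2 went from 47 to 125, and the interaction was -0.57 in number 1 and -1.74 in number 2.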

How the results depend on the processing

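The count of genes called for the interaction was 0 under every alternative with a test. The genes at an unadjusted p under 0.05 in limma numbered 294 with no replicate block, 458 with the replicate block of the number alone, 837 with the replicate block on the responses and 907 without the trend, against 766. The averaged response moved: 97 genes became 0 with no replicate block, 3 with the replicate block of the number alone, 31 with the replicate block on the responses, 2 without the trend, 465 and 507 with a mean log2 level of at least 6 and 7, 250 with quantile normalization repeated and 274 with each array's median subtracted. The genes among these with an interaction interval inside ±1, 96 in the main setting, numbered 0, 3, 31, 2, 464, 506, 248 and 274 in the same order. Leaving out any 1 response gave 0 to 0 for both counts. The share of genes with the same sign in both numbers was 49.5% with quantile normalization repeated. The median interaction of rising genes, -0.0404, was -0.0374 with a level of at least 7, -0.0441 with the mean of all probe sets, -0.0459 with quantile normalization repeated, -0.0471 with array medians subtracted and -0.039 with 16 added before log2.

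The sign of the interaction turned, by more than 1 SE, only in settings that leave out a response or a number, and in 16 of 81 genes. The ranges over those settings were -0.37 to 0.085 for Trib3, -0.13 to 0.98 for Cxcl10, -0.23 to 0.070 for Hmox1, -0.29 to 0.085 for Srxn1, -0.16 to 0.22 for Hspa1b, -0.20 to 0.24 for Fos, -0.33 to 0.014 for Cdkn1a, -0.096 to 0.093 for Mdm2, -0.92 to 0.57 for Il6, -0.67 to 0.26 for Cxcl1, -0.47 to 0.15 for Cxcl2, -0.074 to 0.13 for Ccl2, -0.30 to 0.17 for Mmp3, -0.25 to 0.19 for Mmp13, -0.073 to 0.27 for Ptgs2 and -0.23 to 0.39 for Mitf. The cause of these changes was not tested, beyond the fewer samples or genes that a setting uses. When 1 response is left out, the lone response of its genotype is assumed to vary like the other genotype's. Such a setting also sets 1 number of that genotype against both numbers of the other. The interaction is then no longer formed within the numbers, and a difference in response between the numbers enters it. Trib3, Cxcl1, Cxcl2, Cxcl10 and Ptgs2 had the same sign in both numbers and turned only in such settings.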
